A study of Mus musculus with 10 samples.

Results

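Car2 and Cd63 are 2 of the 19938 genes measured in splenic type 2 conventional dendritic cells (cDC2), the dendritic cells that present antigen mainly to CD4 T cells. Both were chosen from these same arrays because their change after injection of sheep red blood cells (SRBC) differed between genotypes. Each gene is represented by 1 probe set. The study hybridised RNA of sorted cDC2 to 10 one-colour arrays in 4 groups. Notch2-11cKO SRBC (3 arrays) and Notch2-11cKO untreated (2 arrays) came from mice carrying CD11c-Cre and floxed Notch2 alleles, so that recombination is driven in CD11c-expressing cells. WT SRBC (3 arrays) and WT untreated (2 arrays) came from wild-type mice. The SRBC mice had received 200000000 cells intraperitoneally 24 hours earlier. The labels used here give no age and do not say whether replicates were separate mice, so the spread between arrays may be partly technical.

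Carbonic anhydrase 2, the product of Car2, is a cytosolic zinc enzyme that interconverts carbon dioxide and water with bicarbonate and a proton. It is best known in red blood cells, in the kidney and in osteoclasts, where it supplies protons for acid secretion. Cd63 encodes a tetraspanin, a membrane protein with 4 spans that organises other proteins into membrane domains. CD63 is concentrated in late endosomes, lysosomes and the vesicles released as exosomes, and it reaches the cell surface when such compartments fuse with the plasma membrane. In antigen-presenting cells these compartments are also where internalised antigen is degraded and loaded on MHC class II. Notch2 signalling is known to be required for the ESAM-high subset of splenic cDC2.

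The cell type label was checked against 12 cDC2 markers. Itgax, Sirpa, Flt3 and H2-Ab1, which mark conventional dendritic cells, had group means between 8.58 and 12.37 on the log2 scale. Clec4a4 and Esam, markers of the Notch2-dependent subset, averaged 3.87 and 4.17 in Notch2-11cKO SRBC and 3.84 and 4.06 in Notch2-11cKO untreated, against 6.77 and 5.32 in WT SRBC and 7.92 and 5.90 in WT untreated. Over the 12 markers 1 (Cd209a) was higher and 3 (Cd4, Clec4a4 and Esam) lower in Notch2-11cKO untreated, against 2.95% and 2.16% of all genes. After SRBC 2 (Itgam and Cd209a) were higher and 2 (Clec4a4 and Esam) lower, against 3.36% and 1.96% of all genes. With SRBC Cd209a fell in Notch2-11cKO, and Itgam, Cd4 and Cd209a fell in WT, against 0.166% and 1.97% of all genes. The summed intensity of the 12 markers was 10900 to 13600 in Notch2-11cKO SRBC and 15900 to 16600 in Notch2-11cKO untreated. In WT it was 11500 to 12900 after SRBC and 15300 to 15700 untreated. Their median log2 difference with SRBC was -0.24 in Notch2-11cKO and -0.61 in WT, against 0.03 and 0.02 over all genes. The Notch2 probe set itself averaged 7.61 in Notch2-11cKO SRBC and 8.27 in Notch2-11cKO untreated, against 7.26 in WT SRBC and 8.13 in WT untreated, and the labels do not say which exons are floxed, so it does not check the genotype. WT SRBC 1 correlated with the other WT SRBC arrays at r = 0.971 and 0.971, below the 0.990 between those, and Notch2-11cKO SRBC 3 stood apart in the same way (0.979 and 0.975, against 0.988). Without both arrays the difference of responses described further on was -2.33 for Car2 and -2.11 for Cd63, against -2.26 and -2.03 with all arrays. Array medians of intensity lay between 29.5 and 31.7. With 2 or 3 arrays a group, precision is limited by their number.

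Car2 was high in a single group, WT SRBC. Its gene lies on chromosome 3 (positions 14886269 to 14900770, GRCm38.p6). Intensity was 22.9, 23.1 and 25.8 on the Notch2-11cKO SRBC arrays, and 23.7 and 28.7 on the Notch2-11cKO untreated arrays. It was 167, 163 and 188 on the WT SRBC arrays, and 39.0 and 39.8 on the WT untreated arrays. All 3 WT SRBC arrays lay above every other array, the Notch2-11cKO groups overlapped each other, and both lay below both WT untreated arrays.

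As log2 means, Car2 was 4.58 ± 0.09 (SD, n = 3) in Notch2-11cKO SRBC and 4.71 ± 0.20 (SD, n = 2) in Notch2-11cKO untreated. In WT the mean was 7.43 ± 0.11 after SRBC (SD, n = 3) and 5.30 ± 0.02 untreated (SD, n = 2). The difference of SRBC from untreated was -0.13 ± 0.15 (standard error of the limma fit) in Notch2-11cKO, and 2.13 ± 0.15, a ratio of 4.38, in WT. Between genotypes the difference, Notch2-11cKO minus WT, was -2.85 ± 0.13 after SRBC, an intensity 7.21-fold lower in Notch2-11cKO, and -0.59 ± 0.16 in untreated cells. All 4 group means entered the choice of the gene, so these differences are given as a description with no test. The Notch2-11cKO values are dim: the arrays have no detection call here, so it is not known whether they exceed background, and with 16 added to every intensity before the log the difference after SRBC was -2.24. The small negative difference within Notch2-11cKO rests on Notch2-11cKO untreated 2, without which it was 0.01.

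Cd63 was low in a single group, WT untreated. Its gene lies on chromosome 10 (positions 128896231 to 128912822, GRCm38.p6). Intensity was 2954, 3101 and 3404 on the Notch2-11cKO SRBC arrays, and 2267 and 1957 on the Notch2-11cKO untreated arrays. It was 2201, 2173 and 2397 on the WT SRBC arrays, and 361 and 378 on the WT untreated arrays. Both WT untreated arrays lay far below all others, all 3 Notch2-11cKO SRBC arrays lay above all others, and Notch2-11cKO untreated overlapped WT SRBC.

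On the log2 scale Cd63 averaged 11.62 ± 0.10 (SD, n = 3) in Notch2-11cKO SRBC and 11.04 ± 0.15 (SD, n = 2) in Notch2-11cKO untreated, against 11.14 ± 0.08 after SRBC (SD, n = 3) and 8.53 ± 0.05 untreated (SD, n = 2) in WT. SRBC minus untreated was 0.58 ± 0.14 in Notch2-11cKO, a ratio of 1.49, and 2.61 ± 0.14 in WT, a ratio of 6.11. Notch2-11cKO minus WT was 0.48 ± 0.13 after SRBC and 2.51 ± 0.16 in untreated cells, a ratio of 5.71. The untreated genotype difference was 96.2% of the log2 difference between WT SRBC and WT untreated. The means of Notch2-11cKO untreated and WT SRBC differed by -0.10, about the size of the pooled SD within groups (0.10). With quantile normalization the untreated genotype difference was 2.34 and the WT response 2.76, so that Notch2-11cKO untreated lay below WT SRBC. These are descriptions with no test, for the same reason as for Car2.

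**Figure D1:**
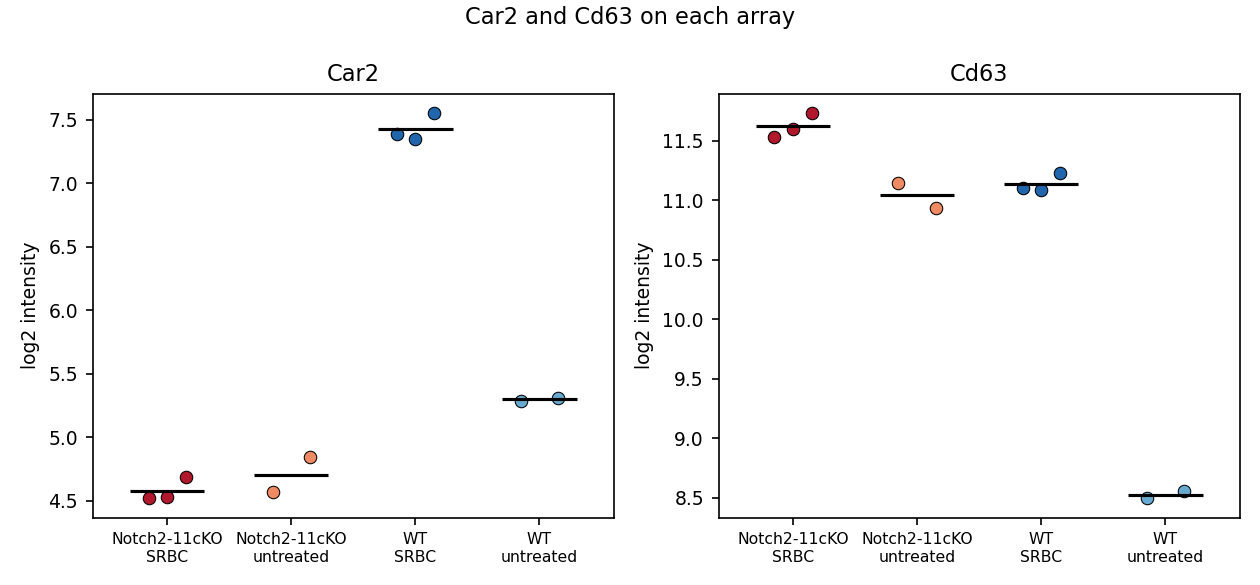
Log2 intensity of Car2 (left) and Cd63 (right) on each array, by group; points are arrays and horizontal lines group means, and the axes do not start at 0. Car2 is high on the 3 WT SRBC arrays (mean 7.43) alone, and Cd63 is low on both WT untreated arrays (mean 8.53) alone.

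Both genes were chosen for the same quantity, the Notch2-11cKO response minus the WT response, which was -2.26 ± 0.21 for Car2 and -2.03 ± 0.20 for Cd63. The same sign arose from opposite sides. For Car2 the untreated Notch2-11cKO level was below the untreated WT level and both Notch2-11cKO groups overlapped. For Cd63 the untreated Notch2-11cKO level was, in the values as deposited, already near that of WT SRBC, and the Notch2-11cKO SRBC arrays stood higher still. With quantile normalization the untreated Notch2-11cKO level of Cd63 lay below that of WT SRBC. The scale matters for Cd63: on linear intensity it was higher by 1041 after SRBC in Notch2-11cKO and by 1888 in WT, so that the Notch2-11cKO increment was 55.2% of the WT increment, whereas for Car2 the increments were -2.28 and 133.

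In the order of all 19938 genes by size of this difference, Car2 was number 13 and Cd63 number 19. Hspa1a, Strip2 and Gm5150 came just above Car2 (2.33, -2.30 and 2.29) and Ptger3, Nudt17 and Ifi206 just below it (2.15, -2.13 and 2.06). Scn3a (2.05) and Scin (-2.04) came after Ifi206 and just above Cd63, and Rftn1 (-2.02), Ceacam1 (-2.02) and Mgl2 (-2.01) just below it. Car2 and Cd63 had a smaller spread within groups than this company. Their pooled SD was 0.12 and 0.10 on the log2 scale, against 0.30 to 1.25, with a median of 0.60, for the other 17 genes with a larger difference than Cd63. Both were chosen from these same arrays, which may have favoured a small spread, so nothing is read from it. Over all genes limma called 4 in this contrast at an adjusted p below 0.05 (0.0201% of those tested), and they were Car2, Cd63, the Notch target Hes1 and Rnase2a; since the rule used this contrast, nothing is read from that for Car2 and Cd63. That number depended on single arrays: it was 0 without WT untreated 1 (limma, with 916 genes at an unadjusted p below 0.05), 1 without Notch2-11cKO untreated 1, 44 without WT SRBC 1, 7 without Notch2-11cKO SRBC 3, and 604 without both arrays that stood apart.

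**Figure D2:**
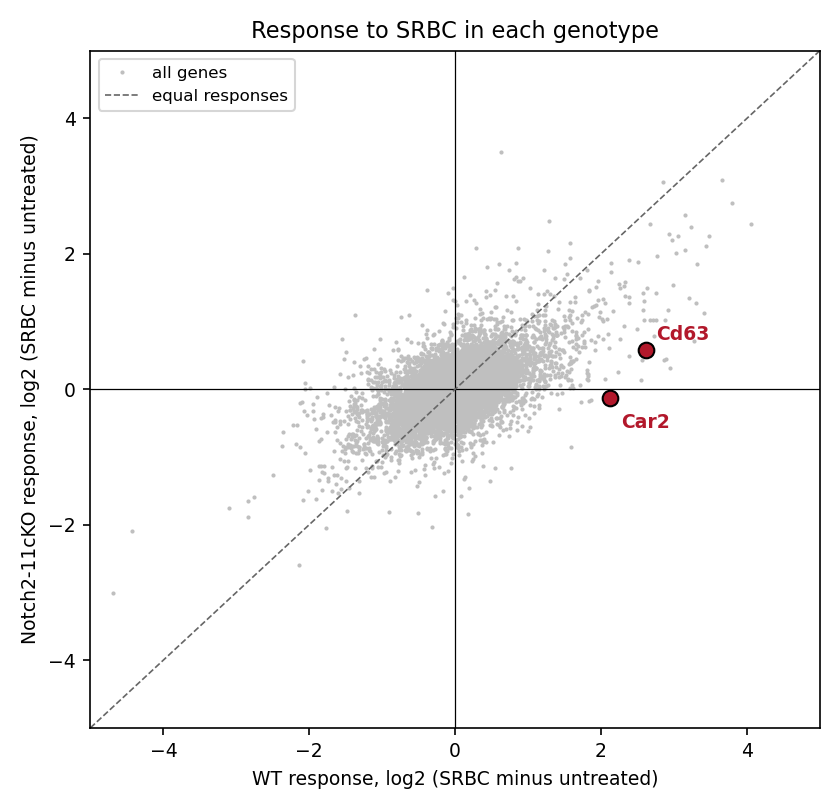
Response of every gene (SRBC minus untreated, log2) in Notch2-11cKO on the vertical axis and in WT on the horizontal axis; grey points are the 19938 genes and the dashed line marks equal responses. Car2 (2.13 in WT, -0.13 in Notch2-11cKO) and Cd63 (2.61 in WT, 0.58 in Notch2-11cKO) lie well below the dashed line.

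The share of genes with a like order of arrays is given as a description, since the choice of both genes used these values. All WT SRBC arrays above both WT untreated arrays, with all 5 Notch2-11cKO arrays below both, was found for 93 of 19938 genes (0.466%). All arrays of the other 3 groups above both WT untreated arrays was found for 1018 genes (5.11%). Among the 363 genes that rose in WT (1.82% of those tested), 7 had the order of Car2 (1.93% of the 363) and 178 had that of Cd63 (49.0%). The order counted for Car2 fixes more arrays than that counted for Cd63, so these shares do not compare the genes, and rising in WT already fulfils part of either order. A smaller response in Notch2-11cKO than in WT was found for 354 of the 363, with medians of 0.48 and 1.22. For 46 of the 363 the untreated genotype difference was at least 90% of the WT response, as for Cd63. Picking genes by their rise in WT favours a larger WT response, so nothing is read from these counts.

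The genes whose values followed Car2 most closely over the 10 arrays, among 9397 named genes at or above the median level, were Kdm2b (Pearson r = 0.983), Pmvk (0.954), Mif4gd (0.951), Glcci1 (0.943), Asprv1 (0.940) and Vti1a (0.936). Kdm2b encodes a histone demethylase that is part of a Polycomb complex, Pmvk a kinase of cholesterol synthesis and Vti1a a SNARE protein of vesicle fusion. Kdm2b averaged 6.07 in Notch2-11cKO SRBC and 6.04 in Notch2-11cKO untreated, against 7.00 in WT SRBC and 6.34 in WT untreated. The ordering by rank was looser, with Spearman coefficients between 0.59 and 0.89 for the 6 genes.

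Cd63 was followed most closely by Il7r (Pearson r = 0.983), Arhgap31 (0.966), Cttnbp2nl (0.965), Rps27l (0.951), Cyth1 (0.951) and Reep3 (0.945). Il7r encodes the receptor chain shared by interleukin 7 and thymic stromal lymphopoietin, and Cyth1 an exchange factor for ARF GTPases. Il7r averaged 9.55 in Notch2-11cKO SRBC and 8.53 in Notch2-11cKO untreated, against 9.05 in WT SRBC and 6.38 in WT untreated. Spearman coefficients lay between 0.79 and 0.92. The arrays fall into 4 groups, so these coefficients mostly describe likeness of group means. They come with no test.

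**Figure D3:**
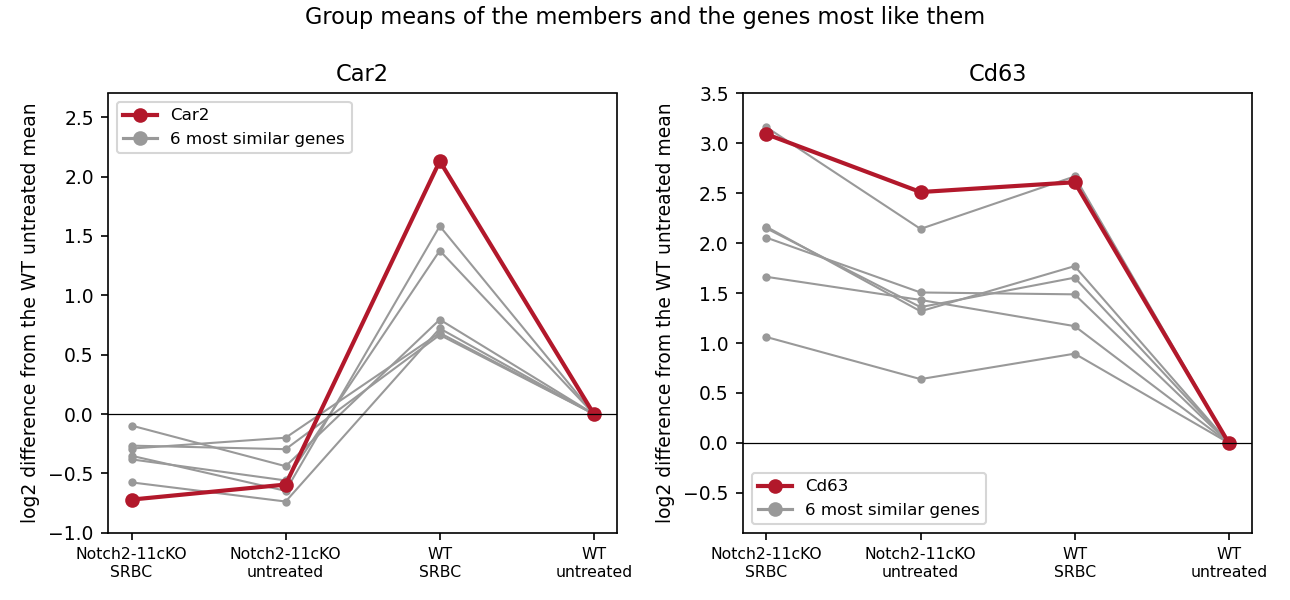
Group means minus the WT untreated mean (log2, vertical axis) for Car2 (left) and Cd63 (right) in red, and for the 6 genes with the highest Pearson r to each in grey. The grey lines of the left panel peak in WT SRBC and those of the right panel are lowest in WT untreated, and Il7r is the grey line nearest to Cd63.

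Counts of other carbonic anhydrases are given beside the share over all genes, and with 15 genes nothing is read from them. Of the 15 besides Car2, none was called in the response of Notch2-11cKO (limma, 0 also at an unadjusted p below 0.05; background 0.306% called). In the WT response 1 rose (background 3.79% called, of which 1.82% higher and 1.97% lower). That was Car1, the cytosolic isozyme of red cells, with log2 values of 5.09, 5.51 and 4.39 in WT SRBC and 3.72 and 4.16 in WT untreated (1.06 ± 0.26, adjusted p = 0.0494). The WT arrays did not overlap, but the call was kept under only 5 of 18 alternatives and lost, for example, without WT untreated 1 or WT SRBC 1. In Notch2-11cKO Car1 was at 4.18, 4.29 and 4.45 after SRBC and at 4.32 and 4.38 untreated, a difference of -0.04 ± 0.26.

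Between genotypes the mitochondrial Car5b was higher in Notch2-11cKO after SRBC (0.82 ± 0.15, adjusted p = 0.00739) and was the only one of the 15 called there (background 5.32%); without WT SRBC 3 the count was 2. None of the 15 was called between untreated genotypes (limma, 1 at an unadjusted p below 0.05; background 5.11%), and 1 was without Notch2-11cKO SRBC 2. Car13, another cytosolic isozyme, was at 5.25, 5.87 and 7.30 in Notch2-11cKO SRBC and 5.66 and 4.75 in Notch2-11cKO untreated, against 5.27, 5.20 and 5.22 in WT SRBC and 4.19 and 4.25 in WT untreated. It was named after its values were seen; in WT the SRBC arrays were all higher, and the difference of 1.01 ± 0.46 did not pass (adjusted p = 0.296). The median difference of the 15 genes was 0.05 in the WT response and -0.02 in the Notch2-11cKO response, against 0.02 and 0.03 over all genes. The hypoxia-regulated Car9 and the catalytically inactive Car11 did not pass in any comparison.

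Acid-base transport around such an enzyme was measured by 20 bicarbonate, proton, lactate and chloride transporters. In WT 2 of the 20 rose with SRBC, against 1.82% of all genes, namely the sodium-dependent bicarbonate transporter Slc4a8 (1.67 ± 0.34, adjusted p = 0.0213) and the endosomal chloride-proton exchanger Clcn5 (1.02 ± 0.25, adjusted p = 0.0445). In Notch2-11cKO none was called (limma, 4 at an unadjusted p below 0.05), against 0.306% of all genes. After SRBC the lysosomal chloride-proton exchanger Clcn7 (0.82 ± 0.15) and its subunit Ostm1 (0.87 ± 0.19) were higher in Notch2-11cKO than in WT (adjusted p = 0.00859 and 0.0198), against 3.36% of all genes higher. In untreated cells the endosomal exchanger Slc9a9 alone was lower (-1.05 ± 0.23, adjusted p = 0.0223), against 2.16% of all genes. These counts rest on few arrays: without either WT untreated array none of the 20 was called in the WT response or between untreated genotypes, where none was called without Notch2-11cKO untreated 2 either. The WT response had 1 without any of WT SRBC 2, WT SRBC 3 or Notch2-11cKO SRBC 1. After SRBC 4 were called without WT SRBC 1 and 1 without any of WT SRBC 3, Notch2-11cKO SRBC 1 or Notch2-11cKO SRBC 2.

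Several other tetraspanins differed by genotype. In untreated cells 6 of the 29 besides Cd63 were higher and 2 lower in Notch2-11cKO, against 2.95% higher and 2.16% lower over all genes. After SRBC 5 were higher and 2 lower, against 3.36% higher and 1.96% lower over all genes. With SRBC 1 of the 29 rose and 1 fell in WT, against 1.82% and 1.97% of all genes, and 1 fell in Notch2-11cKO, against 0.166% of all genes. The median difference of the 29 genes between untreated genotypes was 0.01, against -0.02 over all genes.

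Tspan3 was the tetraspanin most like Cd63. Its log2 values were 9.92, 9.38 and 10.67 in Notch2-11cKO SRBC and 9.64 and 9.84 in Notch2-11cKO untreated, against 9.47, 9.26 and 9.33 in WT SRBC and 7.49 and 7.60 in WT untreated. As with Cd63, only the WT untreated arrays were low. It rose with SRBC in WT (1.81 ± 0.30, adjusted p = 0.00712), a call lost without WT untreated 1 (adjusted p = 0.107) or WT untreated 2 (0.0667). It was higher in untreated Notch2-11cKO than in untreated WT cells (2.20 ± 0.32, adjusted p = 0.00202). The difference was 0.25 ± 0.30 in the Notch2-11cKO response and 0.64 ± 0.26 between genotypes after SRBC, neither past the threshold (adjusted p = 0.846 and 0.231). The responses of Tspan3 in the 2 genotypes differed by -1.56 ± 0.42, which did not pass (adjusted p = 0.376).

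Cd81, a tetraspanin that forms coreceptor complexes on lymphocytes, followed genotype. It was at 10.32, 9.95 and 10.13 in Notch2-11cKO SRBC and 10.65 and 10.55 in Notch2-11cKO untreated, against 9.18, 8.97 and 9.29 in WT SRBC and 8.80 and 8.48 in WT untreated. Every Notch2-11cKO array lay above every WT array, and both genotype differences passed (0.99 ± 0.16 after SRBC, adjusted p = 0.00457, and 1.96 ± 0.20 untreated, adjusted p = 0.000176). Tspan13 had the opposite order, at 9.43, 9.09 and 9.48 in Notch2-11cKO SRBC and 8.54 and 9.02 in Notch2-11cKO untreated, against 10.90, 10.59 and 10.61 in WT SRBC and 10.70 and 10.74 in WT untreated. It was lower in Notch2-11cKO after SRBC (-1.37 ± 0.18, adjusted p = 0.000926) and untreated (-1.94 ± 0.22, adjusted p = 0.000308).

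Tspan5 and Tspan17, members of the group that escorts the protease ADAM10, which cleaves Notch among other substrates, were also higher in untreated Notch2-11cKO (1.40 ± 0.16 and 1.20 ± 0.21, adjusted p = 0.000368 and 0.00661). Leukocyte tetraspanins Cd37 (1.04 ± 0.18) and Tspan32 (1.47 ± 0.16) were higher as well, and Tspan2 was lower (-1.72 ± 0.22). All 5 of these kept their direction and their call after SRBC, with differences between -0.81 and 1.02. Among these the untreated call of Cd37 was lost without WT untreated 1, WT untreated 2 or Notch2-11cKO untreated 1, and that of Tspan17 without WT untreated 2 or Notch2-11cKO untreated 1. After SRBC the calls of Tspan2, Tspan17 and Tspan32 were each lost without WT SRBC 2 or Notch2-11cKO SRBC 2. Within genotypes Tspan32 fell with SRBC in Notch2-11cKO (-0.95 ± 0.15, adjusted p = 0.0293) and Cd37 fell in WT (-0.71 ± 0.17, adjusted p = 0.039); each of these 2 calls was lost without any of several single arrays. After SRBC the number of called tetraspanins fell to 4 without WT SRBC 2. Cd9, Cd53 and Cd82, which dendritic cells also carry, did not pass in any comparison.

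**Figure D4:**
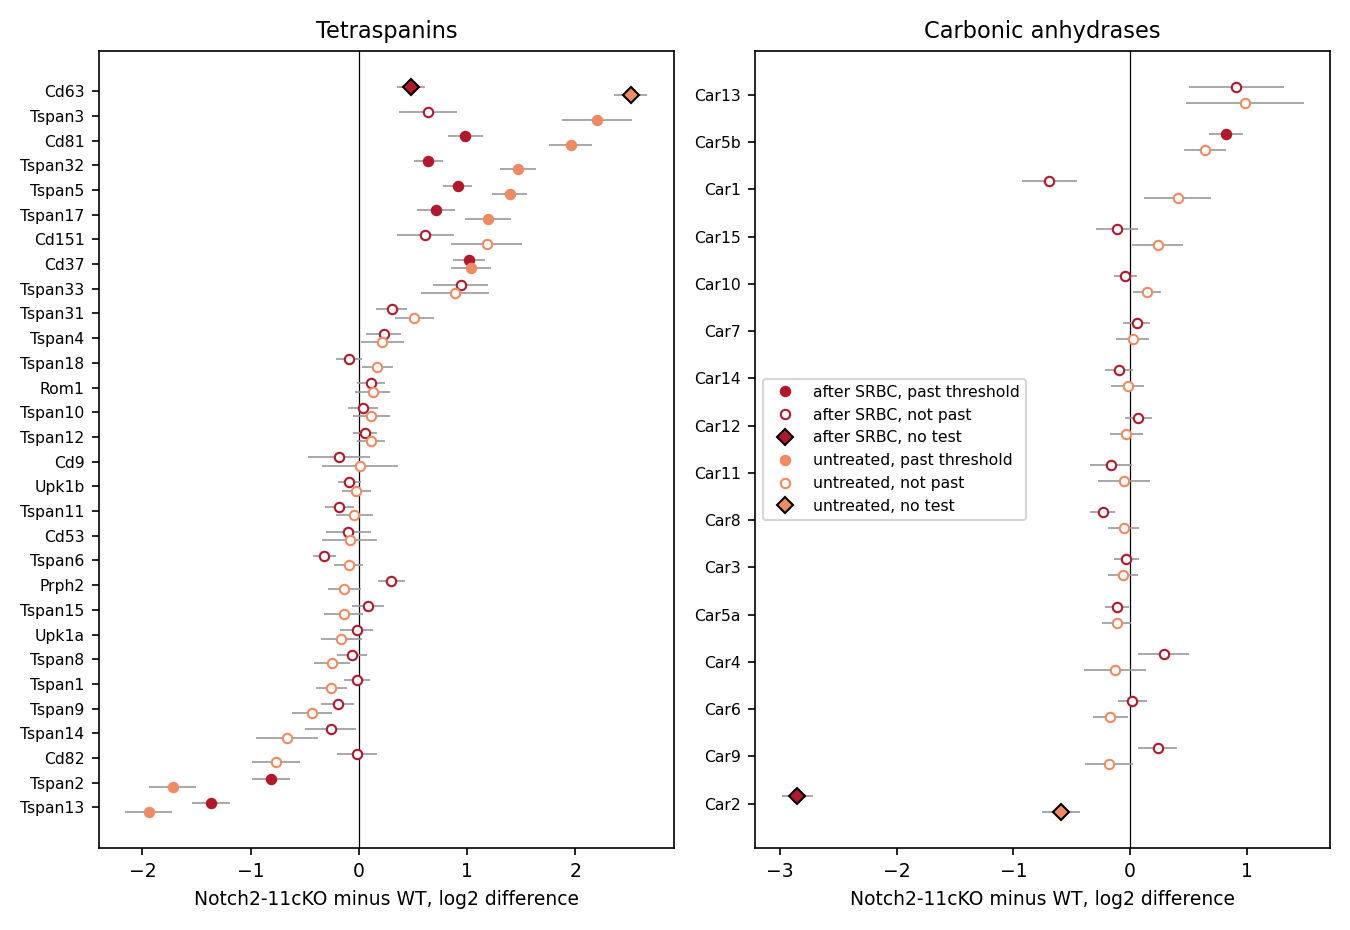
Notch2-11cKO minus WT difference (log2, horizontal axis) of each measured tetraspanin (left) and carbonic anhydrase (right), after SRBC (upper point of each pair, dark) and untreated (lower point, light), with the standard error of the fit as bars; filled circles passed the adjusted p threshold, open circles did not and diamonds were not tested. Cd63 is farthest right among tetraspanins untreated (2.51) and Car2 farthest left among carbonic anhydrases after SRBC (-2.85).

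Of the 4 transcription factors of the MITF and TFE family, which bind an E-box found at many lysosomal genes, Mitf and Tfec were higher in Notch2-11cKO untreated and after SRBC, against 2.95% and 3.36% of all genes. Mitf was at 7.02, 7.05 and 7.20 in Notch2-11cKO SRBC and 7.54 and 7.17 in Notch2-11cKO untreated, against 5.30, 4.40 and 4.56 in WT SRBC and 4.74 and 4.82 in WT untreated. Tfec was at 6.45, 6.90 and 6.65 in Notch2-11cKO SRBC and 5.98 and 6.16 in Notch2-11cKO untreated, against 3.76, 4.90 and 4.23 in WT SRBC and 4.18 and 3.81 in WT untreated. Both were higher in every Notch2-11cKO array than in any WT array. The untreated differences were 2.57 ± 0.27 for Mitf (adjusted p = 0.000185) and 2.07 ± 0.30 for Tfec (adjusted p = 0.00188), and those after SRBC 2.33 ± 0.22 and 2.37 ± 0.25. In the WT response the differences were -0.02 ± 0.24 and 0.30 ± 0.28, neither past the threshold. The part of these factors in the Cd63 result was not tested. Tfeb and Tfe3 did not pass in any comparison.

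A window upstream of an internal transcription start of Cd63 is shown to set its letters beside the motifs of Notch signalling and of these factors. It covers the 250 bases before a Cd63 transcription start in RefSeq (chr10:128909095-128909344, plus strand, GRCm38.p6). The gene spans positions 128896231 to 128912822, so this window lies inside it. The bases before the outer end of the gene were not searched. A match to the core TGGGAA of RBPJ, the DNA-binding partner of Notch, is in capitals (read here on the opposite strand).
Cd63 upstream window: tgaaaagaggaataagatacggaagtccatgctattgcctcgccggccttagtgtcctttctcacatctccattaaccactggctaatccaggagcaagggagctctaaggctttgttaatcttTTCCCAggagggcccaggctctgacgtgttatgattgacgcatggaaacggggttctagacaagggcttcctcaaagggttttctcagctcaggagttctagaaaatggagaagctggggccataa
Searched on both strands, TGGGAA was present once here and in 21.6% of the 32851 windows of the same length. The longer form GTGGGAA, which contains that core, had no match (5.42% of windows), nor had the E-boxes CACGTG (6.02%) and TCATGTG (3.25%) or the AP-1 site TGANTCA (6.75%). A match of these letters is a description of the window and not evidence of binding.

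Among partners of CD63 in the lysosome, Lamp1 and Lamp2, the most abundant lysosomal membrane glycoproteins, were higher in untreated Notch2-11cKO (2.10 ± 0.31 and 0.97 ± 0.22, adjusted p = 0.0019 and 0.0267) and after SRBC (1.21 ± 0.25 and 0.80 ± 0.18). Of 11 binding partners 3 were higher and none lower in untreated Notch2-11cKO, against 2.95% higher and 2.16% lower over all genes. After SRBC 3 were higher and 2 lower, against 3.36% and 1.96%. In the WT response Itga6, a laminin receptor subunit, rose (1.38 ± 0.20, adjusted p = 0.00364) and Itgam fell (-1.44 ± 0.19, adjusted p = 0.00261), against 1.82% and 1.97% of all genes. In the Notch2-11cKO response none was called (limma, 0 at an unadjusted p below 0.05), against 0.306% of all genes, and nothing is read from that absence. Lamp1 and Lamp2 did not pass in the WT response (0.73 ± 0.28 and 0.16 ± 0.20, adjusted p = 0.2 and 0.76).

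Of 28 genes of the machinery that sorts CD63 into endosomes and exosomes, none was called in either response to SRBC (limma, 6 in Notch2-11cKO and 5 in WT at an unadjusted p below 0.05), 1 was called between untreated genotypes and 2 after SRBC. Over all genes 0.306%, 3.79%, 5.11% and 5.32% were called in these comparisons, and nothing is read from these counts. Sdcbp, which encodes the adaptor syntenin that binds CD63, was higher in Notch2-11cKO after SRBC (0.92 ± 0.16, adjusted p = 0.00653) and untreated (0.88 ± 0.20, adjusted p = 0.0257). Rab31 was higher after SRBC (0.89 ± 0.19, adjusted p = 0.0185). The untreated count was 0 without any 1 of the 4 untreated arrays. Of 18 genes of the vacuolar proton pump, which acidifies these compartments, 4 were higher in Notch2-11cKO after SRBC, against 3.36% of all genes: Atp6v0a1, Tcirg1, Atp6v0d2 and Atp6v1b2, with differences between 0.99 and 1.64. In untreated cells 2 were higher, against 2.95% of all genes, Atp6v0a1 (1.79 ± 0.33) and Atp6v1b2 (1.45 ± 0.28). Of the 18, Tcirg1 alone fell with SRBC in WT (-1.44 ± 0.25, adjusted p = 0.00945), against 1.97% of all genes.

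Cd63 is also carried by mature dendritic cells, so genes of that state were set beside it. Of 20 such genes 2 rose in Notch2-11cKO, Socs2 (2.45 ± 0.41) and Cd200 (2.26 ± 0.35), and 12 rose in WT, against 0.14% and 1.82% of all genes, with a median difference of 0.87 in Notch2-11cKO and 1.40 in WT. Their responses did not pass the test of the genotype difference for any of the 20 (limma, 8 at an unadjusted p below 0.05). Only 0.0201% of all genes passed that test, so nothing is read from the absence. The median difference of responses, Notch2-11cKO minus WT, was -0.61 for the 20, against 0.01 over all genes. In WT the largest rises were those of Socs2 (4.06 ± 0.41), Il12b (3.80 ± 0.52), Cd200 (3.48 ± 0.35) and the chemokine gene Ccl22 (2.89 ± 0.31). Their summed intensity lay between 13700 and 17500 in Notch2-11cKO SRBC and between 10700 and 10900 in Notch2-11cKO untreated, against 15400 to 23800 in WT SRBC and 8950 to 9340 in WT untreated. Between untreated genotypes the chemokine genes Ccl22 and Ccl17 were higher in Notch2-11cKO and Cd86 was lower, against 2.95% and 2.16% of all genes. After SRBC Ccl22 and Ccl17 were higher in Notch2-11cKO, and Cd80, Cd86, Cd274 and Tnfrsf4 were lower, against 3.36% and 1.96% of all genes. The part of maturation in the Cd63 and Car2 results was not tested. Without WT SRBC 1 the count called in Notch2-11cKO was 10, and without either WT untreated array, WT SRBC 3, Notch2-11cKO untreated 1 or Notch2-11cKO SRBC 1 it was 0; without WT untreated 1 the count called in WT was 4.

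Other cells that express these genes were read from their markers. In bulk arrays more cells of a type and more RNA per cell cannot be told apart. For Car2 these are erythroid cells: of 13 measured markers Car1 alone rose in WT and none did in Notch2-11cKO, where 1 had an unadjusted p below 0.05 (limma). Over all genes 1.82% rose in WT and 0.14% in Notch2-11cKO, and nothing is read from these counts. The summed intensity of the 13 was 292 to 331 in Notch2-11cKO SRBC and 276 to 288 in Notch2-11cKO untreated, against 320 to 371 in WT SRBC and 286 to 316 in WT untreated. The defining markers Klf1, Epb42 and Rhag averaged between 2.60 and 3.92 in all groups and did not pass in any comparison. Of 12 markers of type 1 conventional dendritic cells, Xcr1, Cd8a, Irf8 and Cd36 rose and Wdfy4 fell with SRBC in WT, against 1.82% and 1.97% of all genes. In Notch2-11cKO none was called (limma, 0 at an unadjusted p below 0.05), against 0.306% of all genes, and nothing is read from that absence. Their summed intensity was 2170 to 2520 in Notch2-11cKO SRBC and 2360 to 2880 in Notch2-11cKO untreated, against 1520 to 1600 in WT SRBC and 1870 to 2030 in WT untreated. The part of these cells in the Car2 result was not tested.

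For Cd63 markers of macrophages, platelets, mast cells and basophils were read here, and those of monocytes are given further on. Of 17 macrophage markers 10 were higher in Notch2-11cKO untreated and 10 after SRBC, 4 rose with SRBC in WT and none was called in Notch2-11cKO (limma, 2 at an unadjusted p below 0.05). Over all genes 2.95%, 3.36% and 1.82% were higher in the first 3 of these comparisons. In the Notch2-11cKO response 0.306% of all genes were called, so nothing is read from the absence there. Their summed intensity was 4830 to 5950 in Notch2-11cKO SRBC and 5100 to 6010 in Notch2-11cKO untreated, against 1910 to 2760 in WT SRBC and 1230 to 1320 in WT untreated. Without WT untreated 1 none rose in WT and without WT SRBC 1 there were 7, and after SRBC 6 differed between genotypes without Notch2-11cKO SRBC 1. The sum was higher in both Notch2-11cKO groups than in both WT groups, and higher in WT SRBC than in WT untreated. Of 9 platelet markers Pf4 was higher in Notch2-11cKO after SRBC (2.97 ± 0.26, adjusted p = 6.24e-05) and untreated (2.07 ± 0.32, adjusted p = 0.00273). In untreated Notch2-11cKO Itgb3 was lower, and in WT Clec1b rose and Itgb3 fell with SRBC. Over all genes 3.36% were higher after SRBC, 2.95% higher and 2.16% lower untreated, and 1.82% rose and 1.97% fell in WT. The platelet sum was 461 to 541 in Notch2-11cKO SRBC and 305 to 349 in Notch2-11cKO untreated, against 360 to 411 in WT SRBC and 338 to 354 in WT untreated. None of 12 mast cell and basophil markers was higher in any comparison (limma, at most 2 at an unadjusted p below 0.05). Hdc was lower in untreated Notch2-11cKO, against 2.16% of all genes. At most 3.36% of all genes were higher in a comparison, and nothing is read from these counts. The sum of the 12 markers lay between 180 and 233 on all arrays. The part of these cells in the Cd63 result was not tested.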

How the data were processed

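The table deposited by the authors holds linear intensity of 28853 probe sets on 10 Mouse Gene 1.0 ST arrays, with nearly equal array medians; RNA was biotin-labelled with the Ambion WT kit per the labels' protocols, and the background correction and normalization are not given in the sources used here. Values were log2 transformed here. Of the probe sets 21789 listed 1 gene symbol, 1621 several and 5443 none in the platform annotation; 19938 genes remained, each through its brightest probe set (mean log2 over all arrays), with no filter on dim genes. limma 3.58.1 (R 4.3.3; lmFit, eBayes with a mean-variance trend) fitted a mean per group, and 5 contrasts were tested two-sided with Benjamini-Hochberg adjustment over all genes at a threshold of 0.05. All adjusted p-values are limma's. The fit was tested on simulated data. Car2, Cd63 and the gene lists were chosen with earlier results of these data known. Of 22 lists, 318 of 349 entries were measured. Named genes were all called carbonic anhydrases and tetraspanins with the brightest of each family, up to 4 called members of other lists by smallest p, the 6 genes with the highest Pearson r to each member, and 3 neighbours on either side in the order of response differences; other names were chosen after their values were seen. Alternatives were quantile normalization, median centring, an offset of 16, averaging a gene's probe sets, a filter on dim genes, no trend, the replicate number as a block, a fit on the compared groups alone, leaving out each array, and leaving out both arrays that stood apart. Gene positions and sequence are from RefSeq (GRCm38.p6). The promoter table was matched for Cd63 and not for Car2. Python 3.11.15 with pandas 2.3.3, NumPy 2.4.6 and matplotlib 3.10.9 made the summaries and plots.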

Additional observations from a re-analysis of the deposited data

Results flagged for a closer look

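The response to SRBC differed between genotypes, in the test of that difference over all genes (limma, adjusted p below 0.05), for 4 genes. Car2 differed by -2.26 (Notch2-11cKO response minus WT response, log2) and Cd63 by -2.03; both were chosen for this difference, which is therefore not independent evidence. Hes1, a repressor induced by Notch, differed by 2.51 (adjusted p = 0.0486): it averaged 5.23 in Notch2-11cKO SRBC and 4.81 in Notch2-11cKO untreated, against 5.32 in WT SRBC and 7.41 in WT untreated, so that WT untreated was the only high group. Rnase2a, an eosinophil-associated ribonuclease gene, differed by 1.53 (adjusted p = 0.0104), with 4.18 in Notch2-11cKO SRBC and 2.52 in Notch2-11cKO untreated, against 2.56 in WT SRBC and 2.43 in WT untreated. No gene was called in this contrast without WT untreated 1 (limma, 916 at an unadjusted p below 0.05).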

How the results depend on the processing

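The direction of the Car2 and Cd63 differences held under the alternatives that can change these values (quantile normalization, median centring, the offset, averaged probe sets, the replicate block and arrays left out), except that of Car2 within Notch2-11cKO, which was 0.0124 without Notch2-11cKO untreated 2. Values that moved by more than the pooled SD were these. With quantile normalization Cd63 was 0.719 in the Notch2-11cKO response, 2.76 in the WT response, 2.34 between untreated genotypes and 0.303 after SRBC. With log2(value + 16) Car2 was 1.77 in the WT response, -0.394 untreated, -2.24 after SRBC and -1.84 in the difference of responses. Leaving out each array in turn gave, for Car2, -0.266 to 0.0124 in Notch2-11cKO, -0.733 to -0.455 between untreated genotypes and -2.40 to -2.12 in the difference of responses, and for Cd63 0.473 to 0.686, 2.41 to 2.62 and -2.14 to -1.93. Where a group is left with 1 array, that array is assumed to vary like the other groups.

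Counts of called genes moved most. With single arrays left out, 2 to 183 genes were called in the Notch2-11cKO response (61 with all arrays), 101 to 1331 in the WT response (756), 418 to 1390 between untreated genotypes (1019), 649 to 1256 after SRBC (1061) and 0 to 44 in the difference of responses (4; 916 at an unadjusted p below 0.05 in limma where it was 0). Without both arrays that stood apart the counts were 398, 2300, 1996, 2364 and 604. With only the groups compared they were 23 in Notch2-11cKO, 1966 untreated and 627 after SRBC. Without the trend they were 103 in Notch2-11cKO and 7 in the difference of responses, which had 2 with dim genes removed. The cause was not tested. Of 24 calls of family members and MITF factors, none reversed; 402 of 451 repeats kept the call, the others being mostly Car1, Cd37 and Tspan32 within a genotype.

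Same-numbered arrays did not deviate together consistently (r between -0.218 and 0.479 over 9969 genes), so the numbers were not taken as pairs. With the replicate number as a block, Car2 and Cd63 differed by -2.26 and -2.03 in the difference of responses, and 50, 715, 1175, 1319 and 6 genes were called in the 5 contrasts.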

Other observations

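The remaining lists describe the cells in which Car2 and Cd63 were measured. Between untreated genotypes, where 2.95% of all genes were higher and 2.16% lower, 7 of 12 monocyte markers were higher and 1 lower in Notch2-11cKO, as were 5 and 1 of 12 markers of type 1 conventional dendritic cells, 2 and 0 of 7 of plasmacytoid dendritic cells, 1 and 0 of 10 of NK cells and 1 and 0 of 13 of neutrophils, while B cells had 3 of 10 lower and T cells 1 of 8 lower. Nothing is read from the lists with a single called marker. The summed intensity of the 12 monocyte markers was 16500 to 19900 in Notch2-11cKO SRBC and 19200 to 21800 in Notch2-11cKO untreated. In WT that sum was 3390 to 4730 after SRBC and 6040 to 6340 untreated. Its part in the Cd63 result was not tested. Immediate-early and heat shock genes had 1 of 24 lower between untreated genotypes. With SRBC 4 of the 24 fell in Notch2-11cKO and 9 in WT, against 0.166% and 1.97% of all genes. Of 12 Notch pathway genes Hes1 and Dtx1 were lower and Rbpj higher in untreated Notch2-11cKO, and Hes1 and Dtx1 fell with SRBC in WT. The part of these genes in the Car2 and Cd63 results was not tested.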
